A study of Mus musculus with 6 samples.

Results

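Interferon-stimulated genes are the genes that cells switch on after sensing interferon. The 9 examined here were Ifit1, Ifit3, Isg15, Rsad2, Bst2, Ifitm3, Irf1, Irf7 and Stat2. They were read by symbol from a table of estimated counts for 56748 genes, in which none of the 9 symbols was repeated, and all 9 passed the filter on low counts that left 13107 tested genes. RNA-Seq was performed on endothelial cells (ECs) that had been sorted from the spinal cord of mice at P16, and each of 3 control and 3 TDP-43iΔEC mice gave 1 library. Controls carried the floxed Tardbp gene (Tardbpflox) and no Cre. TDP-43iΔEC mice also carried Cdh5(PAC)-CreERT2, a Cre recombinase that is driven by the Cdh5 promoter in ECs throughout the body and is active only after tamoxifen. Both groups received tamoxifen at 1 mg/mL once daily from P5 to P7, were on a C57BL/6 background and were of mixed sex. Because tamoxifen was given to both groups and Cre was carried by 1 of them, the loss of TDP-43 and the presence of active Cre cannot be told apart.

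Type I interferons bind the receptor subunits IFNAR1 and IFNAR2, and the kinases JAK1 and TYK2 then phosphorylate transcription factors of the STAT family, among them STAT2. A complex that holds STAT2 and IRF9 binds the interferon-stimulated response element (ISRE) in the promoters of its target genes. Interferon-gamma acts through a separate receptor and the gamma-activated site (GAS) in promoters, and the targets of both pathways overlap. In ECs, which form the blood-CNS barrier, the products of these genes are known for limiting virus entry, replication and release.

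The targeted gene was read first as a check of the labels. Tardbp was counted at 1972, 2279 and 2069.9 normalized counts in controls 1, 2 and 3 and at 980.2, 599.6 and 433 in TDP-43iΔEC mice 1, 2 and 3. All 3 TDP-43iΔEC mice were below all controls, with a log2 fold change of −1.62 (SE 0.41, limma adjusted p = 0.287). The loxP sites flank exon 3, and the counts are of the whole gene, so a transcript lacking that exon would still be counted. Normalized counts are the estimated counts divided by the size factor of each library, and fold changes are those of TDP-43iΔEC over control mice. Library totals were 44041329, 45329494 and 47270654 counts in controls 1, 2 and 3 and 45010088, 28228980 and 25704871 counts in TDP-43iΔEC mice 1, 2 and 3. The smallest level that 3 counts can show was 2.27 to 4.25 normalized counts, a limit that covers counting error alone. Control mouse 2 had the fewest genes with a count, 12972 against 14103 to 16557 in the other 5 libraries, so results are given without it where it decides a value. Markers of ECs were high in every library, at a summed 9586 to 13408 CPM (counts scaled to a common library total) in controls and 9579 to 12050 CPM in TDP-43iΔEC mice. In limma 6 of these 7 markers had a log2 fold change below 0, whereas 49.3% of all tested genes were above 0. For 3 of 7 (Kdr, Flt1 and Tek) every TDP-43iΔEC mouse was below every control, a pattern found in 7.11% of tested genes. Kdr and Flt1 were also among the 5 EC markers used for an alternative scaling.

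None of the 9 genes passed an adjusted p of 0.05 in limma, in which 0.0305% of tested genes passed as higher in TDP-43iΔEC mice. At an unadjusted p under 0.05, 3 of 9 (Ifit3, Ifitm3 and Rsad2) were higher and 0 were lower in limma, against 4.26% of tested genes higher and 5% lower. DESeq2 called 1 of 9 (Ifit3), against 0.816% of tested genes called higher and 1.09% called lower. edgeR called 0 of 9 and gave 2 of 9 (Ifit3 and Ifitm3) an unadjusted p under 0.05, against 2.72% of tested genes higher. In 4 of 9 genes (Ifit3, Isg15, Ifitm3 and Rsad2) every TDP-43iΔEC mouse was above every control, a pattern found in 7.92% of tested genes, and in none was every TDP-43iΔEC mouse below, which held for 7.11%. For those 4 genes a 2-sided exact permutation test of normalized counts gave p = 0.1, the smallest that 3 against 3 mice allow. All 9 log2 fold changes were above 0 in limma and their median was 1.44, beside a median of −0.0155 over all tested genes, of which 49.3% were above 0. The median of the 9 was 0.46 without control mouse 3, 0.57 without control mouse 2, 0.61 with sample quality weights and 0.82 with edgeR. For Stat2 the sign turned to negative with both edgeR and DESeq2. In bulk RNA, fewer cells of a type and less RNA per cell cannot be told apart, and a higher level in all cells cannot be told apart from a very high level in some.

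**Figure D1:**
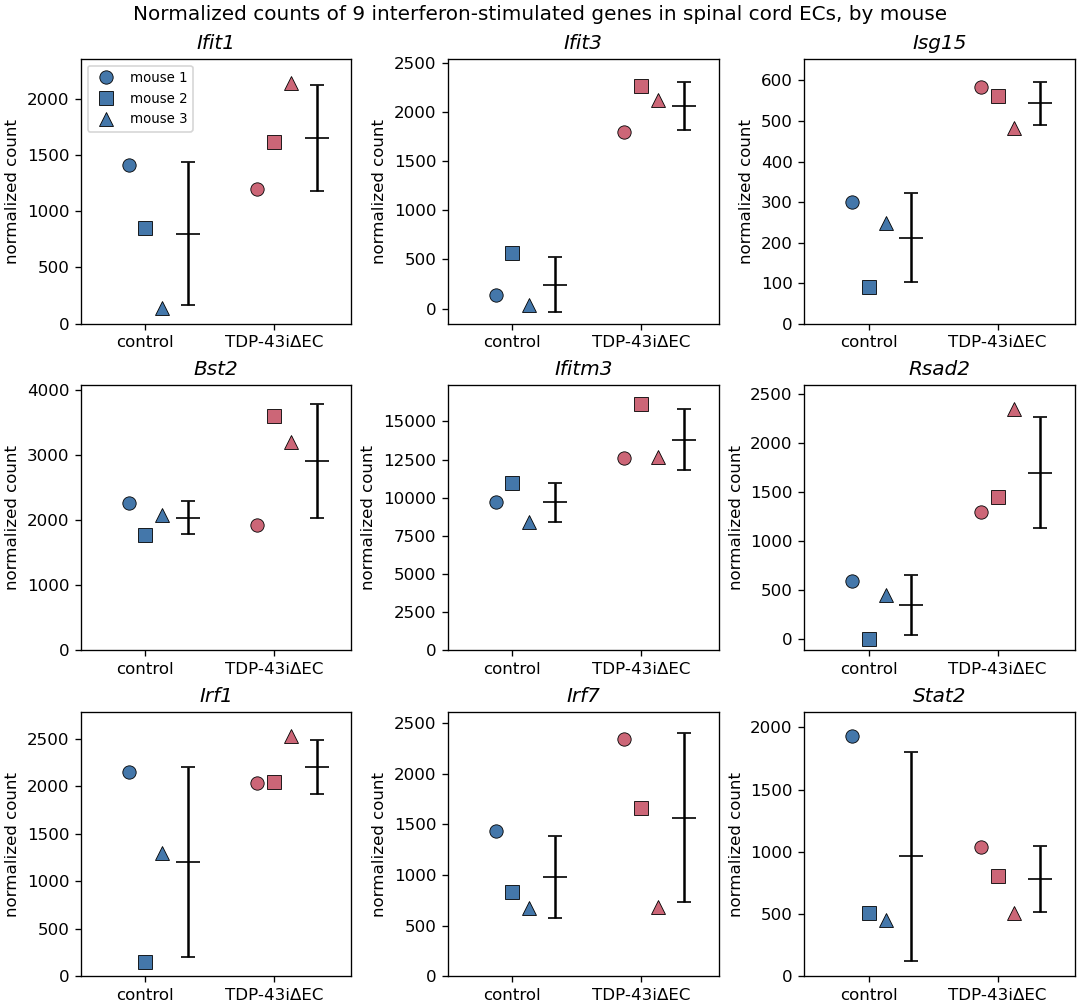
Normalized counts of the 9 genes (y axis, linear) in control (blue) and TDP-43iΔEC (red) mice; each symbol is 1 mouse, and the bar beside it is the mean ± SD of 3 mice. Every TDP-43iΔEC mouse is above every control mouse for Ifit3, Isg15, Ifitm3 and Rsad2, and the groups overlap for the other 5 genes.

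Promoter sequences are shown for the genes whose window held a motif, because 8 of the 9 members held at least 1 of the motifs below and the motifs were not used to choose them. In the RefSeq windows from 250 bases before to 50 bases after the transcription start, both strands were searched for the ISRE core GAAANNGAAA and the GAS core TTCNNNGAA, 2 motifs that can share bases at their ends. The ISRE core was found in 7 of 9 genes, beside 3.99% of all 27025 genes with a window and 3.44% of all 32851 windows. The GAS core was found in 3 of 9 (Irf1, Bst2 and Ifitm3), beside 9.55% of all genes and 8.3% of all windows. Of 13 interferon-gamma genes with a window, 10 held the ISRE core and 6 the GAS core, so the ISRE core was not particular to the 9. Of 32 other genes known to respond to type I interferon that had a window, 12 held the ISRE core and 7 the GAS core. The ISRE is known from the promoters of genes of this kind, so its share among the 9 is no independent result. Irf7 held neither core, and Irf1 held no ISRE core in either of its 2 windows. A match describes these letters in this window and is no evidence of binding. Below, each sequence reads 5′ to 3′ on the strand of the gene, and capitals mark the ISRE core, or for Irf1 the GAS core; a core that lies on the opposite strand therefore appears as its reverse complement. All windows matched GRCm39 exactly once.
Ifit1, chr19:34618165-34618233, plus strand, with 2 ISRE cores: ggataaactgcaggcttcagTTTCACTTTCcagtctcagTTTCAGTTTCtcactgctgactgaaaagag
Ifit3, chr19:34560753-34560836, plus strand, with 2 ISRE cores: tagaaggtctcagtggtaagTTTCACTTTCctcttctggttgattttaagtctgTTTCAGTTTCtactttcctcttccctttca
Isg15, chr4:156285312-156285373, minus strand, with 3 overlapping ISRE cores: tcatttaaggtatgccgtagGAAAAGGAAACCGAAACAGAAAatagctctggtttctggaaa
Rsad2, chr12:26506542-26506591, minus strand, with 1 ISRE core: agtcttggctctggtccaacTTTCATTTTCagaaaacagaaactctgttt
Bst2, chr8:71990211-71990266, minus strand, with 2 overlapping ISRE cores: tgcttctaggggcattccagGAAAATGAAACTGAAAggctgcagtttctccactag
Ifitm3, chr7:140590636-140590665, minus strand, with the first of 2 ISRE cores, both after the RefSeq start: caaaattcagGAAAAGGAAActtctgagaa
Stat2, chr10:128106125-128106174, plus strand, with 1 ISRE core: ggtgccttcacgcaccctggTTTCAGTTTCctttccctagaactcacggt
Irf1, chr11:53660731-53660779, plus strand, with 1 GAS core: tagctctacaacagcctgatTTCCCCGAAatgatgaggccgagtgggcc
The 84 bases shown for Ifit3 were identical to those before its neighbor Ifit3b at 84 of 84 positions. In both Ifit1 and Ifit3 the core farther from the start read TTTCACTTTC and the nearer core read TTTCAGTTTC.

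**Figure D2:**
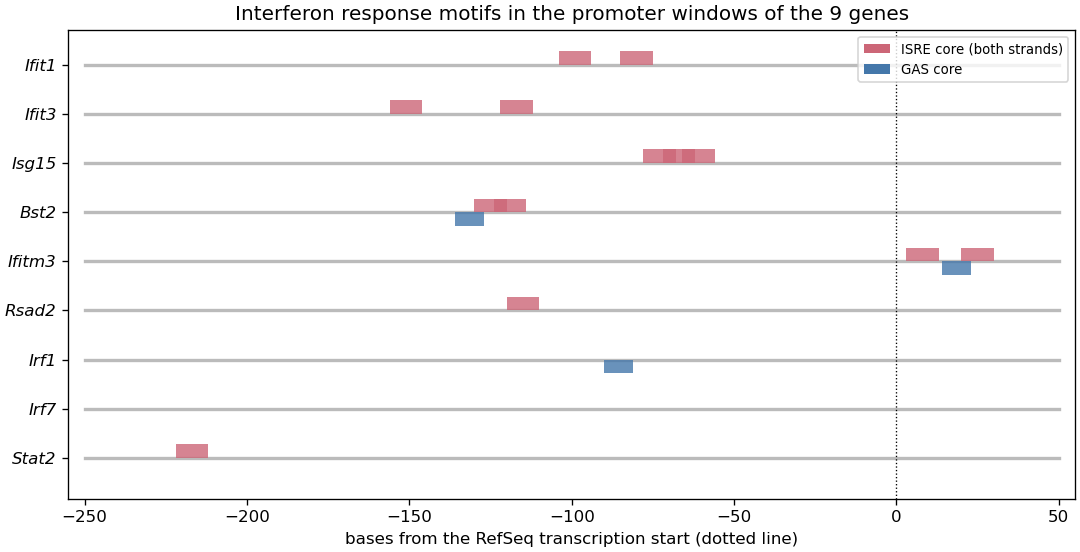
Positions of the ISRE core (red, above the line) and the GAS core (blue, below the line) in the promoter window of each gene, in bases from the RefSeq transcription start (x axis; the dotted line is the start). Irf7 has neither core, and the cores of Ifitm3 lie after the start.

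Ifit1 and Ifit3 encode proteins of the IFIT family, some members of which bind viral RNA and hinder its translation. Both genes lie near each other on chromosome 19. Ifit3 (ENSMUSG00000074896, chr19:34560899-34566443, GRCm39, plus strand, 2 exons in its canonical transcript) was counted at 136, 562 and 34.1 normalized counts in controls 1, 2 and 3. In TDP-43iΔEC mice 1, 2 and 3 it was counted at 1795, 2265 and 2116. The groups did not overlap, and the lowest TDP-43iΔEC value was well above the highest control value. The mean was 244 ± 280 (SD, n = 3) in controls and 2059 ± 240.0 (SD, n = 3) in TDP-43iΔEC mice, a ratio of 8.44. This was a log2 fold change of 3.86 (SE 0.97, 95% interval 1.67 to 6.05). Its limma unadjusted p of 0.00321 was the 146th lowest of the 13107, and the adjusted p was 0.286. edgeR gave a log2 fold change of 3.06 (adjusted p = 0.449) and DESeq2 gave 3.08 (adjusted p = 0.0255), so the call depended on the tool. Fits that lacked any 1 mouse gave log2 fold changes from 2.86 to 4.83.

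Ifit3 shared 31.3% of its 51-base sequences, the length of a read, with other genes, mainly its paralog Ifit3b. Reads of this kind can be split between the 2 copies. Sequencing was paired-end, and this share takes each read without its mate. Ifit3b itself held 2, 0 and 0 counts in the controls and 13, 565 and 7 in TDP-43iΔEC mice 1, 2 and 3. When the counts of both genes were added, the sum was 137, 562 and 34.1 normalized counts in controls and 1805, 2939 and 2126 in TDP-43iΔEC mice. The sum had a log2 fold change of 3.98 (SE 1.03, limma adjusted p = 0.297). The sum thus kept the groups apart, as Ifit3 alone did.

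Ifit1 (ENSMUSG00000034459, chr19:34618271-34632174, plus strand, 2 exons) was counted at 1408, 849 and 141 normalized counts in controls 1, 2 and 3 and at 1194, 1617 and 2141 in TDP-43iΔEC mice 1, 2 and 3. The groups overlapped, since control mouse 1 was above TDP-43iΔEC mouse 1. The mean was 799 ± 635 (SD, n = 3) in controls and 1651 ± 474 (SD, n = 3) in TDP-43iΔEC mice. A log2 fold change of 1.44 (SE 0.71, limma adjusted p = 0.563) was within the spread between mice, and it was 0.45 without control mouse 3. For Ifit3, unlike Ifit1, control mouse 2 held the highest control value and control mouse 1 the intermediate one, so the controls were not ordered alike for these neighboring genes.

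Isg15 encodes a ubiquitin-like protein that is joined to other proteins during the antiviral response. Isg15 (ENSMUSG00000035692, chr4:156283883-156285303, minus strand, 2 exons) was counted at 300.2, 89.8 and 248 normalized counts in controls 1, 2 and 3 and at 584, 563 and 484 in TDP-43iΔEC mice 1, 2 and 3. The groups did not overlap, with means of 213 ± 109 (SD, n = 3) and 544 ± 53.0 (SD, n = 3). Limma gave a log2 fold change of 1.50 (SE 0.77, adjusted p = 0.576), which was 0.95 without control mouse 2. In GENCODE M39, 31.1% of the exonic bases of Isg15 are overlapped by the antisense gene Gm46878, and counting was not stated to use strand, so reads of both cannot be told apart.

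Rsad2 encodes viperin, an enzyme that makes a chain-terminating nucleotide. Rsad2 (ENSMUSG00000020641, chr12:26492745-26506451, minus strand, 6 exons) was counted at 588, 0 and 448 normalized counts in controls 1, 2 and 3 and at 1293, 1453 and 2353 in TDP-43iΔEC mice 1, 2 and 3. Every TDP-43iΔEC mouse was above every control. No read was counted in control mouse 2, which by counting error alone allows up to 2.67 normalized counts there. The mean was 345 ± 307 (SD, n = 3) in controls and 1699.5 ± 571 (SD, n = 3) in TDP-43iΔEC mice, a ratio of 4.92. The limma log2 fold change of 4.91 (SE 2.09, adjusted p = 0.522) rested on that 0, and without control mouse 2 it was 1.56 (adjusted p = 0.428). edgeR gave 2.25 and DESeq2 gave 2.30 for all 6 mice.

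Bst2 and Ifitm3 encode membrane proteins that act at virus release and virus entry, respectively. Ifitm3 (ENSMUSG00000025492, chr7:140589499-140591282, minus strand, 2 exons) was counted at 9701, 10974 and 8373 normalized counts in controls 1, 2 and 3 and at 12615, 16151 and 12662 in TDP-43iΔEC mice 1, 2 and 3. The groups did not overlap, and the coefficients of variation were 13.4% in controls and 14.7% in TDP-43iΔEC mice. The mean was 9683 ± 1301 (SD, n = 3) in controls and 13809.5 ± 2028 (SD, n = 3) in TDP-43iΔEC mice, a ratio of 1.43. The log2 fold change was 0.47 (SE 0.18, 95% interval 0.07 to 0.87, limma adjusted p = 0.483), and it stayed between 0.36 and 0.54 as each mouse was left out. Of its 51-base sequences 50.6% also occur in other genes, among them the opposite-strand Gm57251 and the paralogs Ifitm1 and Ifitm2. Mates of read pairs were not considered in this share either.

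Bst2 (ENSMUSG00000046718, chr8:71986895-71990114, minus strand, 5 exons) was counted at 2262, 1760.1 and 2074 normalized counts in controls 1, 2 and 3 and at 1921, 3587 and 3192 in TDP-43iΔEC mice 1, 2 and 3. TDP-43iΔEC mice 2 and 3 were above all controls and TDP-43iΔEC mouse 1 was among them. The mean was 2032 ± 253 (SD, n = 3) and 2900.1 ± 871 (SD, n = 3), and the log2 fold change of 0.36 (SE 0.32, limma adjusted p = 0.720) was within the spread between mice. It was 0.17 without TDP-43iΔEC mouse 2 and 0.70 without TDP-43iΔEC mouse 1.

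The other 3 members encode transcription factors of the interferon response. Irf1 and Irf7 are interferon regulatory factors, of which IRF7 amplifies the production of type I interferon. Irf1 (ENSMUSG00000018899, chr11:53660812-53669200, plus strand, 10 exons) was counted at 2154, 156 and 1300.4 normalized counts in controls 1, 2 and 3 and at 2034, 2045 and 2536 in TDP-43iΔEC mice 1, 2 and 3. Control mouse 2 was far below the other 5 mice, and control mouse 1 lay within the range of TDP-43iΔEC mice. Its log2 fold change of 1.44 (SE 0.75, limma adjusted p = 0.578) became 0.31 without control mouse 2. Of the exonic bases of Irf1, 46% are overlapped by genes of the other strand.

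Irf7 (ENSMUSG00000025498, chr7:140842619-140846398, minus strand, 10 exons) was counted at 1434, 832 and 675 normalized counts in controls 1, 2 and 3 and at 2343, 1664 and 685 in TDP-43iΔEC mice 1, 2 and 3. TDP-43iΔEC mouse 3 was at the level of the lowest control. The log2 fold change of 0.69 (SE 0.52, limma adjusted p = 0.677) was within the spread between mice, and it was 0.21 without TDP-43iΔEC mouse 1.

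Stat2 encodes the STAT protein that is particular to the type I and type III pathways. Stat2 (ENSMUSG00000040033, chr10:128106352-128128735, plus strand, 24 exons) was counted at 1935, 511 and 450 normalized counts in controls 1, 2 and 3 and at 1036, 802 and 511 in TDP-43iΔEC mice 1, 2 and 3. Control mouse 1 was the highest of all 6, and the mean of controls, 965 ± 840 (SD, n = 3), was above that of TDP-43iΔEC mice, 783 ± 263 (SD, n = 3). The limma log2 fold change was 0.04 (SE 0.65, 95% interval −1.42 to 1.51, adjusted p = 0.991), and edgeR gave −0.34. No difference was detectable with this spread.

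**Figure D3:**
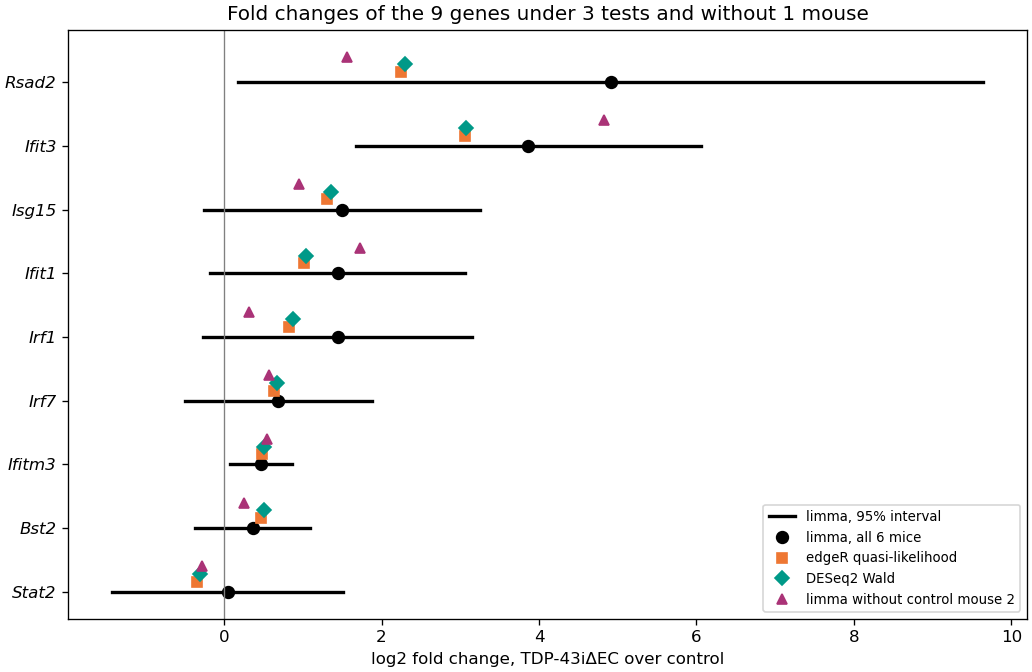
Log2 fold change of TDP-43iΔEC over control mice (x axis) for each of the 9 genes by limma with its 95% interval, edgeR, DESeq2, and limma without control mouse 2. The limma intervals of Rsad2, Ifit3 and Ifitm3 lie above 0, and for Rsad2 and Irf1 the estimate without control mouse 2 is far lower than with all 6 mice (1.56 against 4.91 and 0.31 against 1.44).

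Levels were compared between genes per kb of the canonical transcript. In controls, Ifitm3 was the most abundant at 7582 ± 1018 normalized counts per kb (SD, n = 3), followed by Bst2 at 2521 ± 314, and the ranges of these did not overlap with each other or with the next gene. Irf1 (563 ± 469), Irf7 (409 ± 167), Isg15 (272 ± 140), Stat2 (214 ± 187), Ifit3 (117 ± 134), Ifit1 (108 ± 85.5) and Rsad2 (91.3 ± 81.2) followed, and each pair of neighbors in this order overlapped in range. In TDP-43iΔEC mice Ifitm3 (10814 ± 1588), Bst2 (3598 ± 1080.2) and Irf1 (1032 ± 134) kept the first 3 places. Ifit3 was in place 4 at 986 ± 115, overlapping in range with Irf1 and not with Isg15 (695 ± 67.8). Its range also overlapped with that of Irf7 (652 ± 348), in place 6. Ifit3 had been in place 7 in controls. Stat2 was last at 174 ± 58.5 and overlapped with Ifit1 (222 ± 63.9).

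Pairs of members differed in the sign and size of their correlation across mice. Over the 36 pairs of members, the correlation of log2 CPM over the 6 libraries was positive in 33 with a median of 0.42, and after the mean of each group was taken out it was positive in 25 with a median of 0.20. The pairs share libraries and their depth, and no test was made. The closest pair after removal of the group means was Irf1 and Rsad2 (r = 0.99), both lowest in control mouse 2. Ifit3 and Rsad2 were the most opposed (r = −0.84), and in control mouse 2 Ifit3 was the highest of the controls and Rsad2 was 0. Correlations were not computed without that mouse. The mean z-score of the 9 genes was 0.19, −0.96 and −0.80 in controls 1, 2 and 3 and 0.47, 0.75 and 0.36 in TDP-43iΔEC mice 1, 2 and 3, so that control mouse 1 was the control nearest to TDP-43iΔEC mice. Of the 13098 other tested genes, 195 correlated with this mean score over the 6 libraries at r over 0.9. The 5 closest were Col5a2 (r = 0.998), Cdk11b (r = 0.995), Gm42890 (r = 0.990), Irf5 (r = 0.989) and Ska2 (r = 0.987).

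The other genes of the pathway were read from 8 lists of 103 genes in all, of which 75 were tested and none passed an adjusted p of 0.05 in limma. At an unadjusted p under 0.05 in limma, 8 of the 75 were higher and 5 lower, beside 4.26% and 5% of all tested genes. Among the 10 interferon genes, 8 (Ifnb1, 4 Ifna genes, Ifne, Ifnk and Ifng) held no count in any library, and Ifnl2 and Ifnl3 held 1 and 2 counts in TDP-43iΔEC mouse 1. Transcripts of these 10 genes were therefore at or under the floor of 3 counts in every library.

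Of 5 tested receptor genes, 4 had a log2 fold change below 0, whereas 49.3% of all tested genes were above 0. None of the 5 had an unadjusted p under 0.05 in limma. Ifnar1 was at 9152 ± 3163 normalized counts in controls and 6333 ± 1022 in TDP-43iΔEC mice (SD, n = 3). Il10rb, a subunit shared by the IL-10 and type III interferon receptors, was at 8436, 8483 and 7225 in the controls and 6815, 6415 and 3825 in TDP-43iΔEC mice, with a log2 fold change of −0.53 (SE 0.24, limma adjusted p = 0.541). Ifngr1, a subunit of the interferon-gamma receptor, had a log2 fold change of 0.56 (SE 0.28). For the transducers, none of 5 had an unadjusted p under 0.05, with log2 fold changes of −0.07 for Jak1, −0.53 for Irf9 and −0.60 for Jak2. As each mouse was left out, Irf9 ran from −0.74 to −0.30 and Jak2 from −0.96 to −0.21. The ranges of Stat2 and Irf9 both overlapped between groups.

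Among 4 other tested interferon regulatory factors, Irf2, a repressor of interferon-stimulated genes, was at 1565, 1613 and 1599.9 normalized counts in the controls and 683, 587 and 522 in TDP-43iΔEC mice. The groups did not overlap and varied little within. The log2 fold change was −1.41 (SE 0.38), with an adjusted p of 0.326 in limma and 0.0163 in DESeq2. Irf8 was at 0, 16.9 and 91.7 in the controls and 537, 112 and 174 in TDP-43iΔEC mice (limma adjusted p = 0.533). Irf5 was at 231 ± 135 in controls and 497 ± 93.5 in TDP-43iΔEC mice (SD, n = 3) and was also among the genes most like the members.

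All 5 tested feedback inhibitors had a log2 fold change above 0, beside 49.3% of all tested genes. Of these 5, 1 had an unadjusted p under 0.05 in limma, beside 4.26% of all tested genes higher. Socs3, which inhibits JAK kinases, was at 718, 377 and 589 normalized counts in the controls and 1152, 1317 and 1032 in TDP-43iΔEC mice, with a log2 fold change of 1.06 (SE 0.43, limma adjusted p = 0.511). Usp18, which removes ISG15 from its targets and blocks IFNAR2, had a log2 fold change of 0.77 (SE 0.39), beside 1.50 for Isg15.

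Of 7 sensors and adaptors tested among 11 listed, 5 had a log2 fold change above 0, beside 49.3% of all tested genes. Dhx58, which encodes the RNA sensor LGP2, held 315, 365 and 161 counts in the controls and none in any TDP-43iΔEC mouse. Set against a floor of 3 counts per library, which covers counting error alone, it was 71.0-fold lower. This is no firm lower bound, since a 0 can stand beside high values in a group. Rsad2, for example, held 707, 0 and 552 counts in controls 1, 2 and 3. The adjusted p of Dhx58 was 0.205 in limma and 6.28e-05 in DESeq2. Dhx58 was thus lower in every TDP-43iΔEC mouse, whereas Ifit3, Isg15, Ifitm3 and Rsad2 were higher in every one. Sting1, the adaptor of DNA sensing, was at 2833 ± 709.6 normalized counts in controls and 4469 ± 1044 in TDP-43iΔEC mice (SD, n = 3), with no overlap between groups and a limma adjusted p of 0.549. Tbk1, a kinase downstream of these sensors, had a log2 fold change of 0.92 (SE 0.40, limma adjusted p = 0.536), and Ddx58, which encodes RIG-I, had 0.14 (SE 0.34).

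Other genes known to respond to type I interferon were split between both directions. Of 43 listed, 35 were tested and 5 held no count in any library. Among those tested, 18 had a log2 fold change above 0 and 17 below, with a median of 0.06. Ly6e, the most abundant, was at 133659 ± 5502 normalized counts in controls and 121484 ± 14544 in TDP-43iΔEC mice (SD, n = 3). Shisa5 was at 8115, 10054 and 7783 in the controls and 3322, 5182 and 4824 in TDP-43iΔEC mice, with a log2 fold change of −1.06 (SE 0.23) and an adjusted p of 0.223 in limma and 0.0185 in DESeq2. Ifi27 was also below all controls in every TDP-43iΔEC mouse, with a log2 fold change of −0.79 (SE 0.30, limma adjusted p = 0.483). At an unadjusted p under 0.05 in limma, 1 of 35 was higher and 3 (Shisa5, Ifi27 and Ifi44) were lower, beside 4.26% and 5% of all tested genes. The 1 higher gene was Ifit2, a further IFIT gene, at 94.0, 0 and 271 in the controls and 945, 618 and 399.9 in TDP-43iΔEC mice. Ifit2 and Ifi44 were named after their values were seen. Thus Shisa5 and Ifi27 lay on the other side of the controls from Ifit2 and Ifit3.

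Genes known mainly as targets of interferon-gamma were read from a list of 17, of which 14 were tested. Of the 14, 4 had an unadjusted p under 0.05 in limma, beside 4.26% of all tested genes higher. All 14 had a log2 fold change above 0, beside 49.3% of all tested genes, with a median of 1.42. This median was 0.75 without control mouse 2, 0.72 with sample quality weights and 0.99 with edgeR. The filter favors genes that are high in a group, so this count describes the list and is no test of it. Gbp4, which encodes a guanylate-binding GTPase, was at 484, 322 and 345 normalized counts in the controls and 3477, 2325 and 1956 in TDP-43iΔEC mice. The groups were far apart, with a log2 fold change of 2.76 (SE 0.52) and an adjusted p of 0.139 in limma and 8.76e-08 in DESeq2. Gbp3, of the same family, was at 2324 ± 927 in controls and 6315 ± 1258 in TDP-43iΔEC mice (SD, n = 3), with a log2 fold change of 1.50 (SE 0.34) and an adjusted p of 0.239 in limma and 0.0131 in DESeq2. Irgm1, which encodes an immunity-related GTPase, had a log2 fold change of 0.82 (SE 0.30, limma adjusted p = 0.473). Of the 3 untested genes, Cxcl9 held no count in any library, and Cxcl11 and Ciita each held counts in 1 TDP-43iΔEC mouse and in no control.

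**Figure D4:**
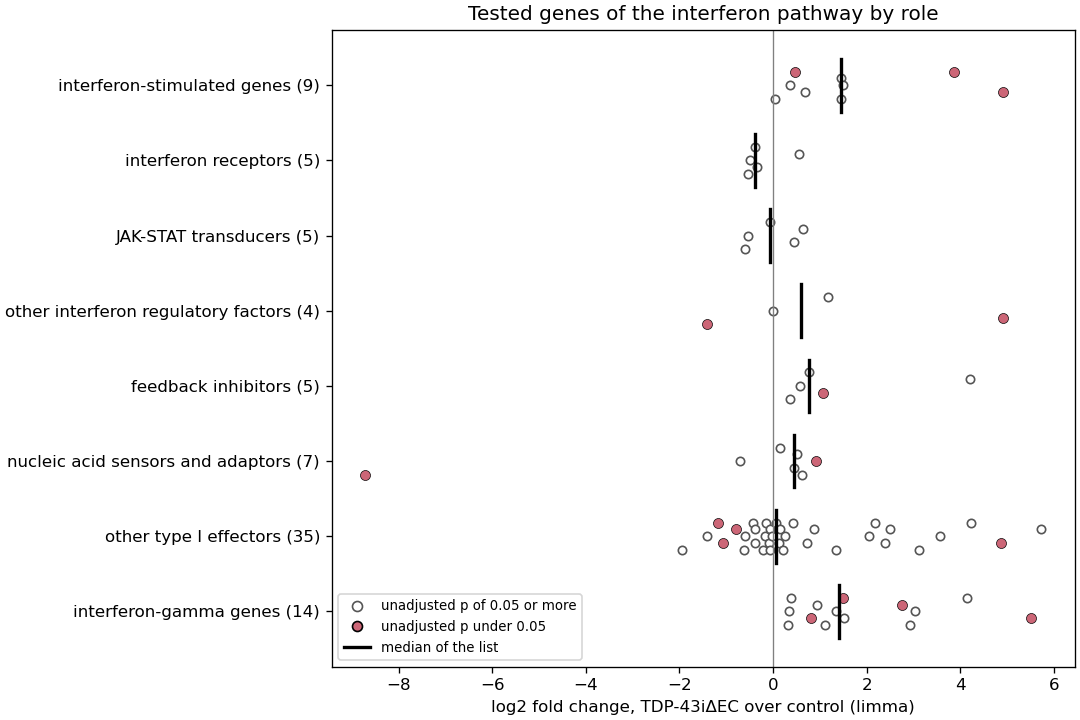
Limma log2 fold change of TDP-43iΔEC over control mice (x axis) for each tested gene of the interferon pathway by role (rows, with the number tested); filled points have an unadjusted p under 0.05 and the bar is the median of the row. With all 6 mice the median is 1.44 for the 9 members (0.46 without control mouse 3). It is 1.42 for the interferon-gamma genes (0.75 without control mouse 2) and 0.06 for the other type I effectors. The point at −8.71 is Dhx58, a fitted value against 0 counts.

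Leukocytes express many of these genes, so their markers are given beside the members. The 9 members summed to 544, 390 and 358 CPM in controls 1, 2 and 3 and to 728, 896 and 732 CPM in TDP-43iΔEC mice 1, 2 and 3. The 12 markers of microglia and macrophages summed to 0 to 5.25 CPM in controls and 3.61 to 8.64 CPM in TDP-43iΔEC mice, and 2 of 12 (Itgam and Adgre1) held no count in any library. The 8 markers of lymphocytes and neutrophils summed to 0 to 0.409 CPM in controls and 0 to 4.85 CPM in TDP-43iΔEC mice, and 4 of 8 (Cd3g, Nkg7, S100a8 and S100a9) held no count. Ptprc, the gene of the CD45 antigen used in the sort, held 14, 0 and 0 counts in the controls and 0, 16 and 0 in TDP-43iΔEC mice. The part of the few leukocyte counts in the levels of the members was not tested. The 4 erythrocyte genes fell in TDP-43iΔEC mice, from 6304 to 9698 CPM in controls to 2186 to 2898 CPM, and all 4 passed an adjusted p of 0.05 in limma; antibodies to Ter119, an erythroid antigen, are listed with those to CD31 and CD45, and the part of these transcripts in the values of the members was not tested. The 5 oligodendrocyte markers summed to 288 to 546 CPM in controls and 15.7 to 497 CPM in TDP-43iΔEC mice. The 5 markers of mural cells summed to 466 to 817 CPM in controls and 390 to 1018 CPM in TDP-43iΔEC mice. The part of these cells in the values of the members was not tested.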

How the data were processed

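The authors sorted ECs by FACS with fluorescent antibodies, of which CD31, CD45 and Ter119 are listed, prepared SMARTseq2 libraries from very small amounts of RNA, mapped the reads with STAR 2.7.8a to GRCm39, estimated gene counts with RSEM 1.3.0 and GENCODE M30, and deposited these estimated counts without scaling or a filter; 0 of the values were not whole. RNA input and PCR cycles varied among samples and are not given per library in the sources used here. Molecular identifiers were not described, so each PCR copy counts as a read. Each mouse gave 1 library, and all 6 were used; every pair differed by more than counting noise (lowest chi-square 162 for each degree of freedom). Totals ran from 25704871 to 47270654 counts.

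Differential expression was fitted over all genes in R 4.3.3 with limma 3.58.1 (voom, empirical Bayes), the tool and transformation that the study names, with no covariate, since none is named, after TMM scaling and filterByExpr of edgeR 4.0.16 at its default minimum count of 10. Benjamini-Hochberg adjustment covered the 13107 tested genes, with a threshold of 0.05. Normalized counts used size factors of DESeq2 1.42.0. Alternatives were the quasi-likelihood test of edgeR, the Wald test of DESeq2, other scalings and filters, sample quality weights, a replicate block, an adjusted p of 0.1 and leaving out each mouse. The summing of Ifit3 with Ifit3b and DESeq2 without filterByExpr were added after the data were seen. The procedures were run on simulated counts with known fold changes, and only the recovery of those fold changes was required. No limit was set on false calls. The 9 genes, the other lists and the tests were chosen with earlier results of these data known. Named genes were the members, Tardbp, in each list up to 4 genes (the 2 with the highest mean and the 2 with the lowest unadjusted p), and the 5 genes most like the members. Of the genes this rule picks, 1 is not reported here. Others named in the text were named after their values were seen.

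Gene positions, exons and shared sequence came from GENCODE M39, which matched 98.71% of identifiers; promoter windows came from RefSeq (GRCm38.p6) and were located in GRCm39 by exact match of their sequence, with all 9 members found.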

Additional observations from a re-analysis of the deposited data

How the results depend on the processing

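The limma test left 18 genes past an adjusted p of 0.05, of which 0 were among the 9. This total was 31 at an adjusted p of 0.1, 0 with edgeR (848 at an unadjusted p under 0.05), 250 with DESeq2, 461 with DESeq2 without filterByExpr, 10 with scaling by library size, 40 with quantile normalization, 1 with scaling to 5 EC markers, 76 with no filter and 39 with at least 10 counts in every library, and it ran from 0 to 13 as each mouse was left out (0 without TDP-43iΔEC mouse 1). The cause of these shifts was not tested. The count among the 9 was 1 (Ifit3) in both DESeq2 versions and 0 in all other alternatives, and their median log2 fold change ran from 0.46 (without control mouse 3) to 1.83 (without control mouse 1). With at least 10 counts in every library Rsad2 was not tested. The median of all genes moved by more than 0.1 with library size (0.176), EC markers (0.226) and without control mouse 2 (−0.170).

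The labels number the mice 1 to 3 in both groups, and the correlations of deviations between same-numbered mice were −0.071, −0.129 and −0.023. Between differently numbered mice they ran from −0.041 to 0.124. With 3 mice in each group this check cannot decide whether equal numbers mark paired samples. With the replicate block, 22 genes and 0 members passed the threshold, and the median of the 9 was 0.69.

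Direction turned for small values. Stat2 was −0.34 with edgeR, −0.30 with DESeq2 (both versions), −0.24 with quality weights, −0.44 with the replicate block and −0.34 to 0.72 with a mouse left out. Ddx58 ran from −0.14 to 0.32 with a mouse left out. Jak1 was 0.12 with library size and 0.18 with EC markers, and ran from −0.31 to 0.15 with a mouse left out. Irf3, at −0.00 in limma, was 0.0034 with edgeR, 0.038 with DESeq2 (both versions), 0.039 with its size factors, 0.040 with quality weights, 0.20 with library size, 0.0073 with quantile normalization, 0.22 with EC markers, 0.026 with at least 10 counts and −0.18 to 0.11 with a mouse left out. Ly6e was 0.016 with library size, 0.12 with quantile normalization and 0.063 with EC markers. The interferon-gamma genes were above 0 in 12 of 14 without TDP-43iΔEC mouse 1 and 13 of 14 without mouse 2. DESeq2 called Ifit3, Irf2, Dhx58, Shisa5, Gbp3, Gbp4 and Tardbp, and limma called Dhx58 with no filter (adjusted p = 0.011) and Gbp4 with at least 10 counts (adjusted p = 0.0462). The groups hold 3 mice each, which limits every test.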
